A study of Homo sapiens with 2 samples.

Results

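The genes described here are 10 genes of the epithelial-mesenchymal transition, namely the cadherin genes CDH1, CDH2 and CDH3, EPCAM, VIM, and the transcriptional repressor genes ZEB1, ZEB2, SNAI1, SNAI2 and TWIST1. They were chosen by name, and every gene probe that the array design assigned to them was taken, which gave 14 of the 34123 gene probes with a usable spot on both arrays, under 10 of 25937 gene names. CDH2, ZEB1, ZEB2 and TWIST1 had 2 probes each and the other 6 genes had 1. Each array compared total RNA of 1 gastric cancer (GC) cell line, MKN74 or MKN45, after electroporation with 50 nM of SET7/9 siRNA (labelled with Cy5) or of negative control siRNA (labelled with Cy3), and cells were collected at 48 hrs. SET7/9 is a lysine methyltransferase encoded by SETD7. Both lines are established cell lines, the labels name no engineered allele, and the cultures of each line shared all conditions but the siRNA. There was 1 array per cell line and no dye swap, so that no value below has a replicate and a dye effect cannot be told apart from an effect of the siRNA. The sources used here do not say which SET7/9 siRNA was hybridised.

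In the epithelial-mesenchymal transition, cells joined in a sheet lose their contacts and apical-basal polarity and take on a motile, spindle-like form. E-cadherin, the product of CDH1, holds neighbouring epithelial cells together, and its loss is known from diffuse-type gastric cancer. The repressors of the SNAI, ZEB and TWIST families shut off CDH1 and other epithelial genes, whereas N-cadherin and the intermediate filament protein vimentin mark the mesenchymal state.

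The knockdown check was at the SETD7 probe that moved most. SET7/9 siRNA over negative control siRNA gave it a log2 ratio of -2.03 in MKN74 (error 0.28) and -1.95 in MKN45 (error 0.28). The other SETD7 probe was at 0.24 and -0.23. The error is the uncertainty that the scanner software gives to the log ratio of a spot, and it is no replicate error. No gene spot was saturated, and each channel had between 54.6% and 66.6% of all probes well above background, which is the software's call that a spot exceeds its local background. All 7 general epithelial markers (KRT7, KRT8, KRT18, KRT19, CLDN4, CLDN7 and MUC1) were well above background in Cy3 in both lines, with a summed scaled signal between 295643 and 371275 per channel. Among 7 fibroblast markers, 1 was detected in Cy3 of MKN74 and 2 in Cy3 of MKN45, and the summed signal lay between 54.6 and 187. COL1A2, COL3A1, DCN, PDGFRB and THY1 were not well above background in any channel. Of 6 leukocyte markers, 2 and 3 were detected, with sums between 666 and 1224, and of 5 endothelial markers 1 and 2, with sums between 35.9 and 66.2. Most of each leukocyte sum came from CD79A, which lay between 582 and 1131. The part of these markers in any value below was not tested.

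All 14 probes were 60 bases long, and the accessions that the array design gives them matched RefSeq transcripts of these genes. Probe positions were not compared with exon positions. Whether each lies in coding or untranslated sequence was not assigned here. On GRCh37 the CDH1 probe lay at chr16:68869214-68869273 and the CDH3 probe on the same chromosome at chr16:68732812-68732871, EPCAM at chr2:47613894-47613953, and SNAI1 at chr20:48605170-48605229, all on the plus strand. The CDH2 probes lay on the minus strand at chr18:25532081-25532140 (probe 1) and chr18:25530936-25530995 (probe 2). The ZEB1 probes lay on the plus strand at chr10:31818063-31818122 (probe 1) and chr10:31816261-31816320 (probe 2), and ZEB2 probe 1 on the minus strand at chr2:145146261-145146320. The CDH1 probe was printed 10 times on each array and the other 13 probes once.

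The genes fell into groups by detection, and the probes that separate them are printed because they decide what can be said of the mesenchymal genes. VIM and TWIST1 probe 2 were well above background in MKN45 and in neither channel of MKN74, and ZEB2 probe 2 was not in any of the 4 channels. The VIM probe reads the plus strand between chr10:17278347-17279256, a span of 910 bases, so that its 60 bases cross an exon junction. TWIST1 probe 2 lies at chr7:19156462-19156521 and ZEB2 probe 2 at chr2:145182363-145182422, both on the minus strand. Each is given 5′ to 3′ as on the array, in lower case, with no base marked.
VIM: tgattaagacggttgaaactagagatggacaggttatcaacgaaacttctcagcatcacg
TWIST1 probe 2: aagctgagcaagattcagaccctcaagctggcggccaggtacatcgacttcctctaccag
ZEB2 probe 2: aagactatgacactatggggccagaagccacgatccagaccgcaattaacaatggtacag

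Across the genes, the epithelial adhesion genes CDH1, CDH3 and EPCAM and the repressor gene SNAI1 were well above background in all 4 channels. The other probes were undetected or had scaled signals of at most 46.9. Well above background were 4 of the 14 probes in Cy3 of MKN74, 5 in its Cy5, 6 in Cy3 of MKN45 and 7 in its Cy5. A probe was analysed further where at least 1 channel passed, which left 5 genes in MKN74 and 7 in MKN45, and 4 probes on both arrays. On neither array passed 6 probes, among them both ZEB2 probes and the SNAI2 probe, so that ZEB2 and SNAI2 were the 2 genes without a measurement. Over the whole array 29.9% of the probes were not well above background in any channel.

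**Figure D1:**
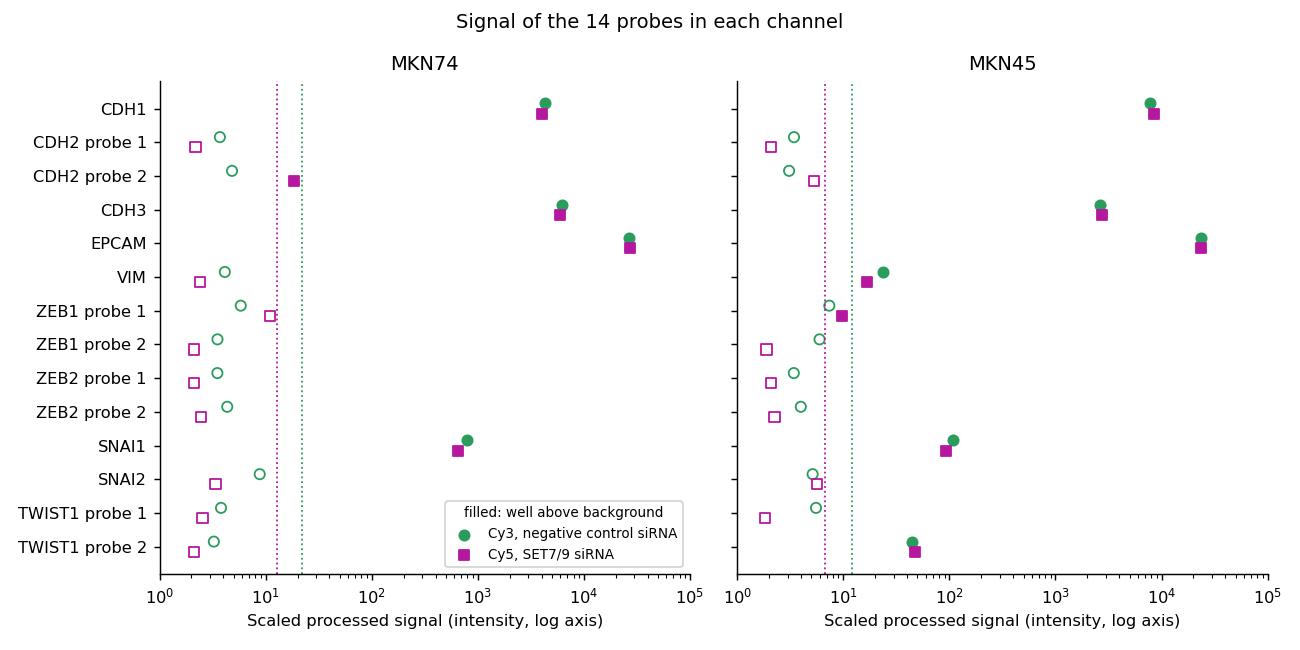
Scaled processed signal (intensity, log axis) of each of the 14 probes in MKN74 (left) and MKN45 (right). Circles are Cy3 (negative control siRNA) and squares Cy5 (SET7/9 siRNA), filled symbols are well above background, and dotted lines mark the dimmest signal that passed as such in each channel. CDH1, CDH3 and EPCAM lie above 2649 in every channel, SNAI1 is at 798 in Cy3 of MKN74 and 108 in Cy3 of MKN45, and VIM and TWIST1 probe 2 are filled in MKN45 only.

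CDH1 was not changed past 1.5-fold in either line. Its signal, scaled across arrays, was 4288 with negative control siRNA and 4045 with SET7/9 siRNA in MKN74, and 7841 and 8442 in MKN45. MKN45 was the higher line under both siRNAs. SET7/9 siRNA over negative control siRNA gave log2 ratios of -0.08 (MKN74, error 0.20) and 0.11 (MKN45, error 0.20). The 10 spots ran from -0.14 to -0.03 in MKN74 (SD 0.036) and from 0.03 to 0.14 in MKN45 (SD 0.033), so that the spots of the lines did not overlap, although spots of 1 array are no replicates of a culture. Among all probes measured in both channels, 32.6% had a lower log2 ratio than CDH1 in MKN74 and 72.4% in MKN45.

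CDH3 encodes P-cadherin, a classical cadherin of basal epithelial cells whose gene neighbours CDH1. Its scaled signal was 6203 and 5927 in MKN74 and 2649 and 2764 in MKN45, in the order negative control siRNA and SET7/9 siRNA, so that MKN74 was the higher line. Log2 ratios were near 0, at -0.07 (MKN74, error 0.20) and 0.06 (MKN45, error 0.20). The sign in MKN74 turned to 0.10 with normexp, a model-based background correction, and loess, an intensity-dependent centring of the ratios.

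EPCAM, the epithelial cell adhesion molecule, was at 26652 and 27202 in MKN74 and at 23306 and 23367 in MKN45. The 4 channels lay close to each other. Log2 ratios were 0.03 (MKN74, error 0.20) and 0.0038 (MKN45, error 0.20), and both turned negative with normexp and loess, at -0.05 and -0.07.

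SNAI1, the zinc finger repressor Snail that binds E-boxes of the CDH1 promoter, was below its negative control on both arrays. The scaled signal was 798 with negative control siRNA and 647 with SET7/9 siRNA in MKN74, and 108 and 93.0 in MKN45. The log2 ratio was -0.30 (error 0.21) and -0.21 (error 0.21), or -18.9% and -13.7%, which did not reach 1.5-fold. With normexp and loess it was -0.32 and -0.13. In MKN74, 7.12% of the probes measured in both channels had a lower log2 ratio, and in MKN45 12.7%. Fitted in limma over both arrays together, the mean was -0.26 with an unadjusted p of 0.032, and the adjusted p (Benjamini-Hochberg over 19595 probes) was 0.373. Over the other settings of that limma fit, the Benjamini-Hochberg adjusted p of SNAI1 lay between 0.0593 and 0.377.

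The other genes measured on both arrays lay further from the threshold. The Benjamini-Hochberg adjusted p in limma was 0.958 for CDH1, 0.990 for CDH3 and 0.915 for EPCAM. Of these 4 genes, 0 passed an adjusted p of 0.05 in limma with Benjamini-Hochberg adjustment and 1, SNAI1, had an unadjusted p below 0.05. Over all probes limma called 0 of 19595 after adjustment and 2569 were below 0.05 unadjusted. The fit had 1 residual degree of freedom, and the cell lines stand in for replicates.

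Vimentin transcripts were near the limit of detection. The VIM scaled signal was 23.4 with negative control siRNA and 16.8 with SET7/9 siRNA in MKN45, and 4.13 and 2.41 in MKN74, where neither channel was well above background. The lowest signals that counted as well above background were 12.1 in Cy3 and 6.77 in Cy5 of MKN45, and 22.1 and 12.8 in MKN74. The log2 ratio in MKN45 was -0.48 with an error of 0.33, or -28.3%, and 2.40% of the probes measured in both channels were lower. It was 0.05 after normexp and loess, and the share of either step in this change of sign was not tested.

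TWIST1, a basic helix-loop-helix repressor, had probes that differed in detection. TWIST1 probe 2 was at 44.8 and 46.9 in MKN45 and at 3.25 and 2.12 in MKN74, and only the MKN45 channels were well above background. Its log2 ratio in MKN45 was 0.07 (error 0.23). TWIST1 probe 1, at chr7:19155645-19155704 on the minus strand, was not well above background in any channel. Probe 1 had a GC content of 26.7% and probe 2 of 55.0%, and the part of base composition in this disagreement was not tested.

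CDH2, the N-cadherin gene, was well above background at 1 probe in 1 channel. CDH2 probe 2 was at 18.7 with SET7/9 siRNA in MKN74, against 4.82 with negative control siRNA, and at 3.08 with negative control siRNA and 5.29 with SET7/9 siRNA in MKN45. Its log2 ratio of 1.96 (error 0.82) in MKN74 was the 1 value past 1.5-fold among the kept probes of the genes. It was on the higher side, where 3.78% of the kept probes of MKN74 lay, and was 0.14 with normexp and loess. The Cy3 signal was not well above background, and the lowest detectable Cy3 signal of 22.1 exceeded the Cy5 signal, so that no fold can be given. CDH2 probe 1 was not well above background in any channel, so that the value stands on 1 probe and 1 spot.

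Of the ZEB genes, which encode zinc finger homeobox repressors of CDH1, only ZEB1 probe 1 in Cy5 of MKN45 was well above background. Its signal was 7.38 with negative control siRNA and 9.66 with SET7/9 siRNA in MKN45, with a log2 ratio of 0.39 and an error of 0.63, and 5.83 and 10.9 in MKN74. No fold could be bounded there either. ZEB1 probe 2 and both ZEB2 probes were between 1.88 and 5.97 in every channel. SNAI2, the Slug gene, was at 8.80 and 3.37 in MKN74 and at 5.14 and 5.66 in MKN45, none of them well above background.

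In all, 0 of 5 kept probes were past 1.5-fold on the lower side and 1 on the higher side in MKN74, where the whole array had 1.76% and 3.78%. In MKN45 it was 0 of 7 in each direction, where the whole array had 1.97% lower and 4.81% higher. With both channels well above background, 0 of 4 genes in MKN74 and 0 of 6 in MKN45 were past 1.5-fold, beside 2.09% and 2.43% of all such probes. These are too few probes for their share to be read against that of the array.

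**Figure D2:**
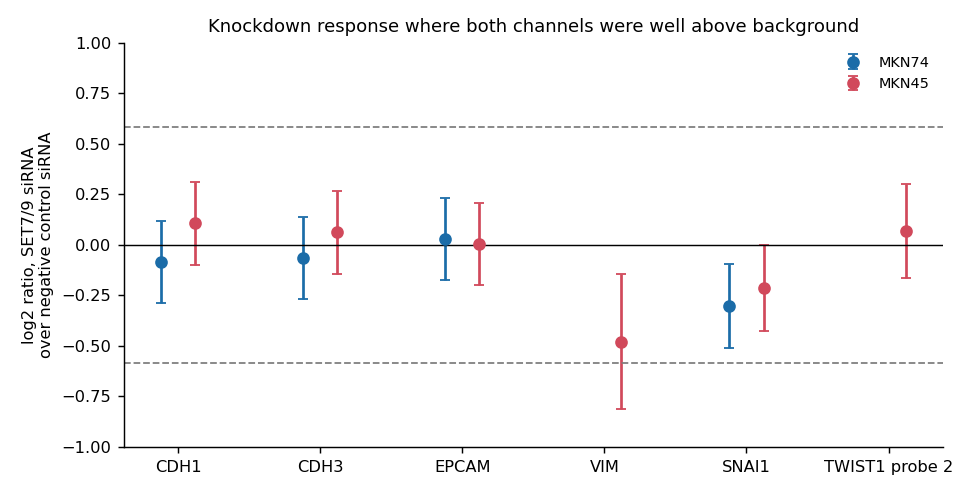
Log2 ratio of SET7/9 siRNA over negative control siRNA for the probes with both channels well above background, in MKN74 and MKN45. Bars are the error the scanner software gives to a spot and dashed lines mark 1.5-fold. No point lies past 1.5-fold, SNAI1 is at -0.30 and -0.21, and VIM has the lowest value, -0.48.

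The larger differences among these genes were between the cell lines. The level with negative control siRNA in MKN45 was set against MKN74 probe by probe in Cy3, and the SET7/9 siRNA cultures in Cy5 gave the same difference in another pair of cultures. In such bulk samples, fewer expressing cells and less RNA per cell cannot be told apart. Values are log2 of the scaled signal in MKN45 minus MKN74, with an error from the software's signal errors, and the median over all probes detected in Cy3 of both lines was -0.13. That median was 0.03 when arrays were scaled on the 75th percentile, and single genes shifted by more, as TWIST1 probe 2 from 3.78 to 4.13 and VIM from 2.51 to 3.04. SNAI1 differed most among the genes measured in both lines, at -2.89 (error 0.21) in Cy3 and -2.80 (error 0.21) in Cy5, or 7.41-fold and 6.96-fold higher in MKN74. Of the probes detected in both lines, 2.14% lay further to the MKN74 side. CDH3 was at -1.23 (error 0.20) and -1.10 (error 0.20), or 2.34-fold and 2.14-fold higher in MKN74.

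CDH1 went the other way, at 0.87 (error 0.20) in Cy3 and 1.06 (error 0.20) in Cy5, or 1.83-fold and 2.09-fold higher in MKN45. It was thus short of 2-fold with negative control siRNA and past it with SET7/9 siRNA. EPCAM was near the median of all probes, at -0.19 and -0.22. The line with more CDH1 had less SNAI1, but it was also the only line with TWIST1 probe 2, of another repressor gene, well above background. With 2 cell lines no relation between the genes can be given.

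The genes detected in MKN45 only had lower bounds, for which the MKN74 signal was set to the lowest signal counted as well above background. TWIST1 probe 2 was at least 2.03-fold higher in MKN45 in Cy3 and at least 3.66-fold higher in Cy5. VIM was at least 1.06-fold higher in Cy3 and at least 1.31-fold higher in Cy5. With normexp, loess and Aquantile together the differences were 0.82 for TWIST1 probe 2 and 0.33 for VIM, under 2-fold. From the processed signals scaled by Aquantile they were 3.78 and 2.51, with MKN74 signals that were not well above background. Over the whole array, 8.68% of probes passed in Cy3 of MKN45 and not in Cy3 of MKN74. CDH2 probe 2 was at least 2.76-fold higher in MKN74 in Cy5 and was not detected in Cy3.

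By Cy3, 2 probes (CDH3 and SNAI1) were past 2-fold on the MKN74 side, and 2 (VIM and TWIST1 probe 2) on the MKN45 side, of the 6 probes detected in at least 1 line. Over all probes so detected, 22.3% were past 2-fold on the MKN74 side and 22.2% on the MKN45 side. With 6 probes, these shares cannot be told apart from those of the array, and the bound for VIM in Cy3 was itself under 2-fold.

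The surroundings of these genes were described with 6 lists, each taken at its brightest probe per gene. Cell junction genes, the partners of E-cadherin and the tight junction and desmosome genes, were detected throughout. Of 17 junction genes, 0 were past 1.5-fold with SET7/9 siRNA in either line, and their log2 ratios had medians of -0.05 (MKN74) and -0.03 (MKN45). Of 24 genes of the epithelial programme, such as the GRHL, OVOL and ESRP regulators and simple keratins, 0 were past 1.5-fold at that probe either. Their medians were -0.10 and -0.04. In MKN45 another probe of GRHL1, at -1.07, and another of the receptor gene ERBB3 were past 1.5-fold on the lower side. The brightest probes of GRHL1 and ERBB3 were at -0.24 and -0.07 there, and the remaining ERBB3 probe was not past 1.5-fold. For these genes the result thus depends on the probe. Over all genes at 1 probe each, 5.53% were past 1.5-fold in MKN74 and 6.55% in MKN45, with medians of 0.01 in each. With both channels well above background, as in nearly all junction and epithelial programme genes, it was 2.13% and 2.32%. None of the 6 lists is long enough for its count to be read against these shares.

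Mesenchymal genes were detected in part. Of 29 genes, 11 had no probe well above background in any channel, among them the matrix genes FN1, COL1A2, COL3A1 and POSTN and the protease gene MMP2. Over the whole array, 18326 of 25937 genes had a probe well above background in at least 1 channel. With 29 genes, the share undetected cannot be told apart from that of the array. In MKN74, 1 of 15 kept genes was past 1.5-fold, CD44 on the higher side at 1.47, and in MKN45 4 of 17, of which 3 were on the higher side and 1 on the lower, with medians of 0.07 and 0.13. Those on the higher side in MKN45 were the matrix genes TGFBI at 1.39 and LOXL2 at 0.96, and FSTL1 at 1.18. These 3 and CD44 were well above background in Cy5 only, and with normexp and loess they were at 0.36, 0.15, 0.11 and -0.02. TNC, on the lower side in MKN45, had both channels well above background. It encodes the matrix glycoprotein tenascin-C and had a signal of 18.1 with negative control siRNA and 8.55 with SET7/9 siRNA, a log2 ratio of -1.08 (error 0.41), and -0.26 with normexp and loess.

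Of 17 other regulators of the transition, 2 of 11 kept genes were past 1.5-fold in MKN74, 1 on each side, and 1 of 15 in MKN45, on the higher side. Those on the higher side were ETS1 in MKN74 at 0.65 and SNAI3 in MKN45 at 1.57, both well above background in Cy5 only. ID1, an inhibitor of basic helix-loop-helix factors and a target of BMP signals, was the 1 with both channels well above background. Its signal in MKN74 was 53119 with negative control siRNA and 29974 with SET7/9 siRNA, and its log2 ratio was -0.83 (error 0.22), or -0.68 with normexp and loess. In MKN45 the signals were 6346 and 6070 and the log2 ratio was -0.06. Whether the responses differ between the lines was not tested, as there was 1 array of each.

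TGF-beta is the best-known inducer of the transition. Of 17 genes of TGF-beta and BMP signalling, 4 of 16 kept genes were past 1.5-fold in MKN74, 2 on each side, and 0 of 15 in MKN45. Over all genes at 1 probe each it was 5.53% and 6.55%, and 16 genes are too few for their share to be read against these. TGFBR3, the co-receptor betaglycan, was at 639 with negative control siRNA and 387 with SET7/9 siRNA in MKN74, a log2 ratio of -0.72 (error 0.21). BAMBI, a decoy receptor that dampens TGF-beta and BMP signals, was at 81335 and 53874, a log2 ratio of -0.59 (error 0.21). INHBA, the activin A subunit gene, was at 44.5 and 98.9 and had the opposite sign, at 1.15 (error 0.25). With normexp and loess the values were -0.52, -0.52 and 0.57, each just short of 1.5-fold, which is 0.585 on this scale. The fourth, the receptor gene TGFBR1, was at 0.75 and well above background in Cy5 only.

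Of 10 corepressor genes through which SNAI and ZEB proteins act, such as CTBP1, HDAC1, KDM1A and the polycomb genes EZH2 and SUZ12, 0 were past 1.5-fold in either line. Their medians were -0.05 in MKN74 and -0.02 in MKN45.

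**Figure D3:**
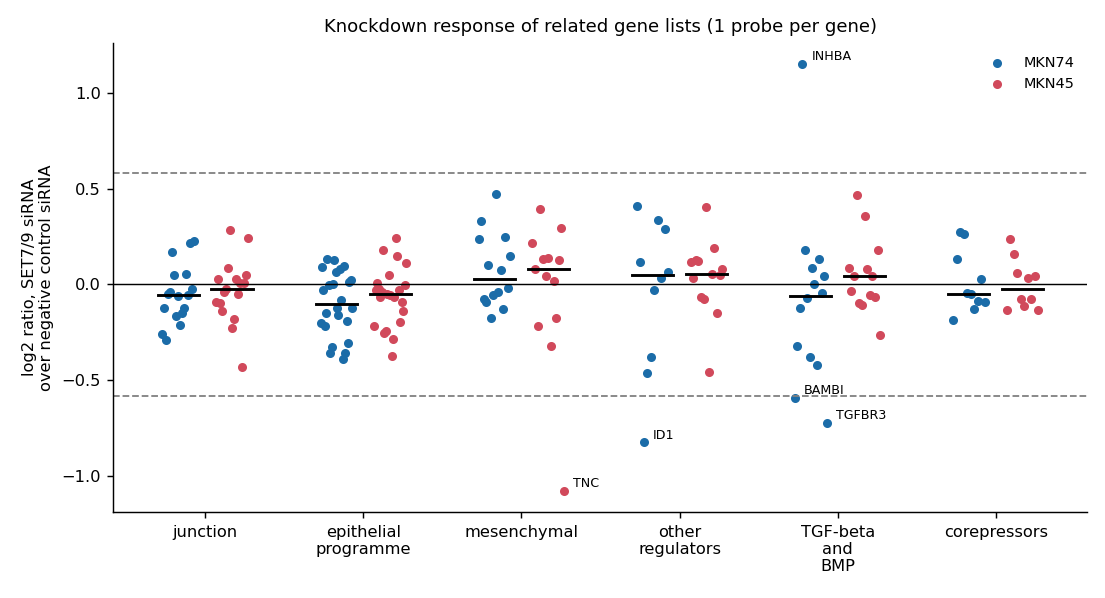
Log2 ratio of SET7/9 siRNA over negative control siRNA for genes of the 6 lists with both channels well above background, 1 probe per gene, in MKN74 and MKN45. Black lines are medians and dashed lines mark 1.5-fold. The labelled genes ID1, TGFBR3, BAMBI and INHBA in MKN74 and TNC in MKN45 are those past it.

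Between the lines, the same lists differed gene by gene in both directions. Over all genes detected in Cy3 of at least 1 line, 43.8% were past 2-fold in Cy3. Over all genes detected in Cy3 of both lines, it was 34.6%. None of the lists is long enough for its count to be read against these shares. Of 17 junction genes, 2 were past 2-fold on the MKN45 side and 5 on the MKN74 side. On the MKN45 side stood CTNND1, the gene of p120-catenin, at 1.17 (its other probe at -0.08), and the desmosomal cadherin gene DSG2 at 1.01, and on the MKN74 side the tight junction genes TJP1 at -2.07, CLDN4 at -1.73 and CLDN7 at -1.34. Of 24 epithelial programme genes, 4 and 8 were past 2-fold. The mucin gene MUC1 was at 5.70, FXYD3 at 3.56 and the epithelial transcription factor gene ELF3 at 2.78, all higher in MKN45. On the MKN74 side GRHL1 was at -3.19 (its other probe at -0.96) and the protease gene PRSS8 at -2.78.

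Of 18 mesenchymal genes detected in at least 1 line, 7 were past 2-fold on each side, so that the list did not lean as VIM did. These counts include genes undetected in 1 line, also where the bound was under 2-fold. Of the 9 detected in both lines, 4 were past 2-fold on the MKN45 side and 2 on the MKN74 side. CD44, the hyaluronan receptor, was at 32594 in MKN45 and 5.96 in MKN74, or at least 1476-fold higher in MKN45, and MSN, the gene of moesin, was at least 66.2-fold higher. S100A4 was at 6.37. The receptor tyrosine kinase gene AXL was at -4.06, FSTL1 was at least 8.57-fold and TGFBI at least 5.83-fold higher in MKN74.

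Of 13 other regulators detected in at least 1 line, 8 were past 2-fold on the MKN45 side and 3 on the MKN74 side. Again this includes genes undetected in 1 line, also where the bound was under 2-fold. Of the 10 detected in both lines, 5 were past 2-fold on the MKN45 side and 3 on the MKN74 side. TWIST2, the paralogue of TWIST1, was at 256 in MKN45 and 3.64 in MKN74, where it was not well above background, and thus at least 11.6-fold higher in MKN45, the same side as TWIST1 probe 2. The homeobox gene GSC was at least 9.51-fold higher in MKN45. ID3, ID2 and ID1 were at -5.34, -3.29 and -3.07, on the MKN74 side with SNAI1.

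Of 15 TGF-beta and BMP genes detected, 4 were past 2-fold on the MKN45 side and 7 on the MKN74 side. BAMBI was at -6.06 and TGFBR3 at -3.55, and SMAD4, the common mediator of both branches, was at 103 in MKN74 and 3.68 in MKN45, where neither channel was well above background, or at least 8.53-fold higher in MKN74. The inhibitory SMAD gene SMAD6 was at 3.01, BMP4 at 2.82 and TGFB3 at least 2.92-fold higher in MKN45. Of 10 corepressor genes, HDAC1 was at 1.41 and CTBP2, HDAC2 and CTBP1 were at -1.23, -1.21 and -1.05, and these 4 were those past 2-fold.

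**Figure D4:**
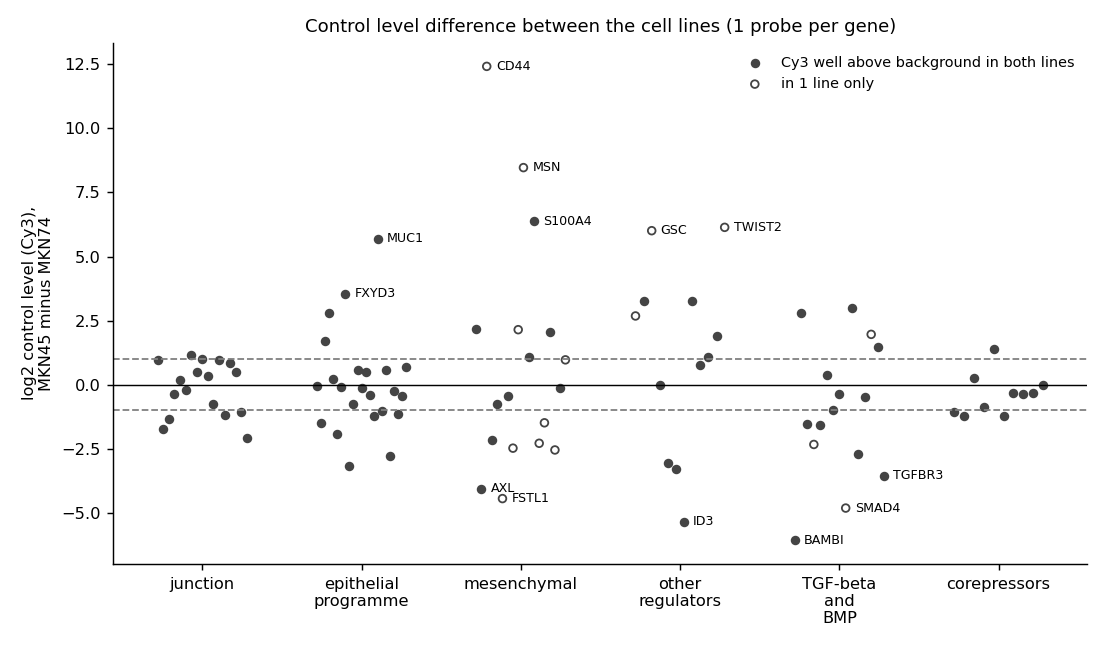
Control level (Cy3) in MKN45 minus MKN74 on the log2 scale for genes of the 6 lists, 1 probe per gene. Filled points are well above background in both lines, open points in 1 line only, and dashed lines mark 2-fold. CD44 lies furthest to the MKN45 side of the points drawn, and mesenchymal genes fall on both sides.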

How the data were processed

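Per the file headers, the authors deposited scanner output of Agilent Feature Extraction 10.7.3.1 for 2 arrays, 1 per cell line. The deposited intensity of each spot and channel was given raw and as a processed value, from which the software had subtracted the background, replaced dim signals by surrogates and normalized the dyes. The deposited log10 ratio, Cy5 against Cy3, was made by the software from the processed values and came with an error. A p-value of that ratio was also deposited and was not used. The authors further deposited a table of log2 ratios, used as an alternative. Probe coordinates are on GRCh37.

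Ratios were converted to log2, outlier spots were left out and spots of a probe averaged. Probes entered where 50% or more of their spots were well above background in 1 channel or both. Calls were made at 1.5-fold for the knockdown, the cutoff of the study, and at 2-fold between lines. Signals were scaled across arrays by Aquantile in limma 3.58.1 (R 4.3.3). For a dim channel, a lower bound used the lowest signal well above background or, if greater, the channel's own, as means of normalized values, and is open to dye bias. The common response was fitted in limma over both arrays with Benjamini-Hochberg adjustment. Each list gene was taken at the probe brightest over both arrays. Named list genes were up to 4 per direction past 1.5-fold with both channels well above background, and up to 3 per direction past 2-fold between lines. TGFBR1, CD44 and GRHL1 in the knockdown, ERBB3, LOXL2, FSTL1, TGFBI, ETS1, SNAI3 and the undetected genes were named after their values were seen. The members and lists were chosen with earlier results of these data known. Values of 2 further list genes that this rule names are not reported here, nor drawn in the plot of line differences, but stay in the counts. Names are those of the array design. The counting, bound and limma steps were tested on simulated data. Python 3.11.15 was used. The number of arrays limits the precision.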

Additional observations from a re-analysis of the deposited data

How the results depend on the processing

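No paired analysis was possible because each cell line had 1 replicate number, beyond the ratio on each array, which already sets the siRNAs against each other within a line. Leaving out a replicate was not possible for the same reason. Of the 14 probes, the count past 1.5-fold on the higher side in MKN74 went from 1 (CDH2 probe 2) to 0 with normexp and loess, with the deposited log2 table and with both channels required, and to 2 with no filter on dim probes. With no filter the lower side had 1 probe in MKN74 and 3 in MKN45 where it otherwise had 0, and the higher side of MKN45 had 1 in place of 0; these are probes with no channel well above background. The count past 2-fold on the MKN45 side in Cy3 went from 2 to 0 with normexp, loess and Aquantile together, and when Cy3 was required to be well above background in both lines.

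With normexp and loess, the mesenchymal genes past 1.5-fold went from 1 to 0 (MKN74) and from 4 to 0 (MKN45), the other regulators from 2 to 1 and from 1 to 0, and the TGF-beta and BMP genes of MKN74 from 4 to 0. With both channels required, the mesenchymal counts were 0 and 1 and those of the other regulators 1 and 0. The mean over the probes of a gene put 2 epithelial programme genes, GRHL1 and ERBB3, past 1.5-fold in MKN45 in place of 0. Each had another probe past 1.5-fold on the lower side there. The cause of the shifts in these counts was not tested.

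Of single values, the MKN45 minus MKN74 difference of SNAI1 was -2.37 with normexp, loess and Aquantile, and with no scaling CDH1 was at 0.56 and CDH3 at -1.56. Among list genes past 1.5-fold, CD44 in MKN74 went from 1.47 to -0.02 with normexp and loess. For CDH2, ZEB1, ZEB2 and SNAI2, and for VIM and TWIST1 in MKN74, at least 1 channel was not well above background, so that a change with SET7/9 siRNA was not detectable rather than absent. limma called 2 probes lower with both channels required, and 493 lower and 1065 higher with normexp and loess, none of them a probe of the 10 genes.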
